A study of Mus musculus with 9 samples.

Results

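Tyrp1 and 6 other genes of the melanocyte lineage, Dct, Tyr, Mitf, Pmel, Mlana and Kit, were followed across sciatic dorsal root ganglia, where the cell bodies of sensory neurons of the sciatic nerve lie among their glia. The genes were found by matching their symbols to the Ensembl identifiers of the expression table, and all 7 had a row among the 45904 rows. In GENCODE M21 (build mm10), Tyrp1 (ENSMUSG00000005994) is on chromosome 4, Kit on 5 (75574916 to 75656722, plus strand), Mitf on 6 (97807052 to 98021349, plus), Tyr on 7 (87424771 to 87493512, minus), Pmel on 10 (128704195 to 128720238, plus), Dct on 14 (118012790 to 118052244, minus) and Mlana on 19 (29697824 to 29708634, plus). Tyrp1 was chosen by its measured FPKM, which were lower in aged than in young sham ganglia, so its levels in that comparison are given as a description with no test, while the other 6 were listed for their place in the lineage. All mice were C57BL/6, and each of the 9 libraries held ganglia pooled from 2 mice, taken 24 h after surgery. The 3 groups of 3 libraries were young sham (8 to 10 weeks old), aged sham (20 to 22 months old) and aged mice of the same age range with sciatic nerve injury. The labels give no sex and do not say how the nerve was injured. With aged mice alone in the injured group, age can be compared only between the sham groups and injury only between the aged groups. Aged injury and young sham differ in both.

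Melanocytes are pigment cells of the neural crest, and part of them arise from Schwann cell precursors along nerves. In them the transcription factor Mitf switches on the pigment genes. Tyr, tyrosinase, carries out the rate-limiting step of melanin synthesis, and its relatives Dct and Tyrp1 act on later intermediates of the dark pigment eumelanin. Pmel forms the fibrils on which pigment is laid down in the melanosome, Mlana is a melanosome protein needed for Pmel processing, and Kit is the receptor through which Kit ligand keeps melanoblasts alive and moving. Kit is also made by mast cells and by some sensory neurons, and Mitf by several other cell types.

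The 3 enzyme genes share an upstream element, the M-box, which Mitf and its relatives can bind. The 7-letter core TCATGTG was looked for on both strands in the 250 bases before each RefSeq gene start (build GRCm38.p6). The tables held 5 of the 7 members in 8 windows, and 3 members carried the core: Tyrp1, Tyr and Dct. It is shown here to set the shared element beside levels that differ, with the core in capitals, 5′ to 3′ on the strand of the gene.
Tyrp1, chr4:80834155-80834184, plus strand: tggggagggagTCATGTGctgcctagtagt
Tyr, chr7:87493516-87493545, minus strand: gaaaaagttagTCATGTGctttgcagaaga
Dct, chr14:118052379-118052408, minus strand: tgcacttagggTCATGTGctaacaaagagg
The core began 47 bases before the RefSeq start of Tyrp1, 22 before that of Tyr and 151 before that of Dct, whose window held the core 1 more time on the opposite strand. In Tyrp1 the stretch also lies in an untranslated exon of an annotated transcript with an earlier start (GENCODE M21), and in Tyr and Dct it lies outside the annotated gene. Of 32851 windows of all genes, 3.25% held the 7-letter core and 0.155% held GTCATGTGCT, the 10 letters that the 3 enzyme genes have in common, on either strand. Neither the windows of Mitf nor those of Kit held the core. A match is a description of the letters, not of binding.

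Between 20237 and 21100 identifiers were above 0 in each library, in units of FPKM, read fragments scaled by gene length and by library size. Taking young sham replicate 1 as 1, a single read was worth 0.816 of its FPKM value in aged injury replicate 1, the lowest, and 1.18 in aged sham replicate 2, the highest. Absolute depth is not known from FPKM. Genes that mark the tissue were present: all 11 neuronal and all 9 Schwann cell markers were above 0 in every library. The groups differed in Y-linked transcripts as well as age. The summed level of 4 Y-linked genes was 93% to 106% of the young mean in young sham and 69.7% in aged sham replicate 1. In the other 5 aged libraries it was at most 0.0426%. The X-linked transcript Xist ran the other way, at most 0.02 FPKM in young sham and 1.75 in aged sham replicate 1. In the other 5 aged libraries Xist read 9.77 to 13.05 FPKM. Age and sex therefore cannot be told apart in most of what follows. A low value can also come from the counting of reads: Gapdh, a gene that every cell uses, was listed at only 0.446 to 0.771 FPKM.

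Tyrp1 was the member whose level separated young from aged ganglia. The young sham libraries read 7.29, 4.61 and 7.03 FPKM, those of aged sham 0.769, 0.729 and 0.577, and those of aged injury 0.701, 0.851 and 0.510. Every young library was above every aged library, and the lowest young library, replicate 2, was still far above the highest aged one. Of all genes tested, 11.5% were lower without overlap in aged sham than in young sham, and 15.5% in aged injury. The mean was 6.31 ± 1.48 FPKM in young sham and 0.692 ± 0.102 FPKM in aged sham (SD, n = 3 each), a 9.13-fold difference in mean level. On the log2(FPKM + 0.1) scale the change was -2.998. Since the gene was chosen for this difference, no test is attached to it. Ordered by log2 change, Tyrp1 ranked 16 from the bottom among the 17601 genes whose mean reached 0.2 FPKM, and 12 once Y-linked genes were set aside. In these bulk samples, fewer cells of a type and less RNA per cell cannot be told apart.

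**Figure D1:**
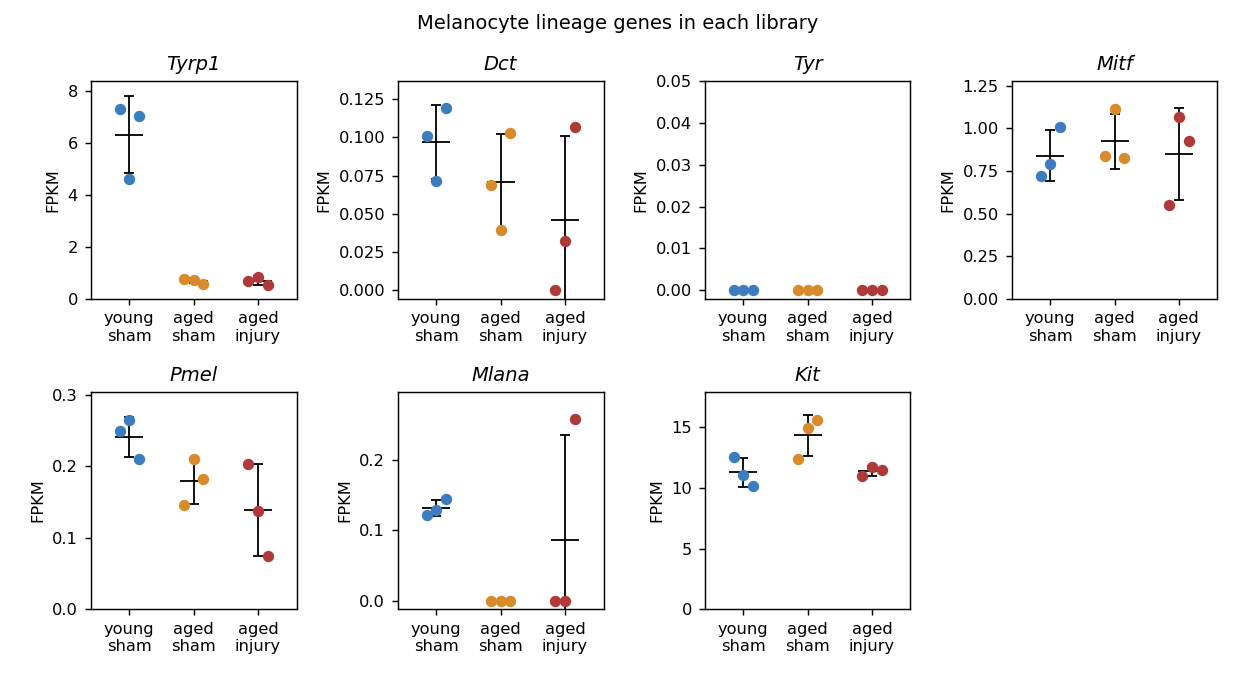
Level in FPKM (vertical axes, a separate linear scale for each gene) of the 7 lineage genes in the 9 libraries. Points are libraries and bars the mean ± SD of the 3 libraries of a group, with bars that would pass below 0 ending at the axis. Tyrp1 is at 4.61 FPKM or more in young sham and at most 0.851 FPKM in the aged groups, while Tyr is listed at 0 throughout and the ranges of young and aged sham overlap for Dct, Mitf, Pmel and Kit.

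The aged injury libraries were as low as aged sham, at 0.687 ± 0.171 FPKM. Injury of the aged nerve did not move Tyrp1 beyond the spread of the libraries: its log2 change against aged sham was -0.02 (95% interval -0.53 to 0.48, limma adjusted p = 0.974). This comparison uses the aged sham libraries by which the gene was chosen. In limma, 4.11% of the 17601 genes tested were called in that comparison at an adjusted p under 0.05, and 4.02% in aged against young sham. Against young sham the log2 change of aged injury was -3.02, with no overlap of the groups, as for 15.5% of all genes tested. The young libraries in it are the ones already described.

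The aged sham libraries differed in Y-linked level but all had low Tyrp1. Aged sham replicate 1, the library with 69.7% of the young Y-linked level, had 0.769 FPKM of Tyrp1, and its group mates with at most 0.0323% had 0.729 and 0.577 FPKM. Its value was the highest of its group. A fit with the Y-linked level as a covariate gave a Tyrp1 log2 change of -2.67 between the sham groups, and leaving out aged sham replicate 1 or any other of the 9 libraries gave values from -3.21 to -2.88. Age and sex cannot be told apart from 1 such library, and their part in the level of Tyrp1 was not tested.

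**Figure D2:**
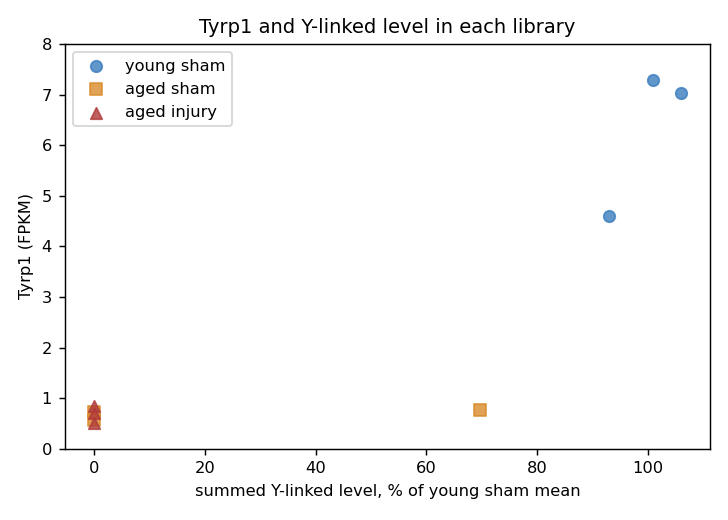
Tyrp1 level in FPKM (vertical axis) against the summed level of 4 Y-linked genes as a percentage of the young sham mean (horizontal axis), 1 point per library. The aged sham library at 69.7% has 0.769 FPKM of Tyrp1, within the range of 0.510 to 0.851 FPKM of the aged libraries.

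The other pigment enzymes gave almost no signal. Tyr, on which melanin synthesis depends, was listed at 0 in all 9 libraries. Dct, dopachrome tautomerase, read 0.101, 0.0712 and 0.119 FPKM in the young libraries, 0.0687, 0.0397 and 0.103 in the aged sham ones, and 0, 0.0323 and 0.106 after injury. The 3 groups overlapped. In young sham, where Tyrp1 averaged 6.31 FPKM, Dct averaged 0.0969 ± 0.0241 FPKM.

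The melanosome proteins were close to the limit of detection too. Pmel read 0.249, 0.264 and 0.2103 FPKM in the young libraries, 0.146, 0.2104 and 0.182 in the aged sham ones, and 0.203, 0.137 and 0.0753 after injury. The sham groups barely overlapped, and the 3 injured libraries were below the 3 young ones, as was the case for 15.5% of all genes tested. Pmel also lies across Cdk2 and Dgka, genes of the opposite strand, and how strand was handled is not given in the sources used here, so its values are uncertain. Mlana read 0.122, 0.129 and 0.144 FPKM in the young libraries and was listed at 0 in every aged library except aged injury replicate 3, at 0.257 FPKM. All 3 young libraries were thus above the 3 aged sham ones, as was the case in this direction for 11.5% of all genes tested, but the highest Mlana value of all was in an aged library. With no filter its log2 change with age was -1.21 (95% interval -2.23 to -0.19, limma adjusted p = 0.182), on 3 recovered reads in young sham and 0 in aged sham.

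FPKM values of a gene are whole multiples of a step, so reads could be recovered for these genes up to a common factor (all values within 0.001 of a whole read). The recovered reads of Tyrp1 summed to 656 in young sham, 72 in aged sham and 83 in aged injury. For Dct they summed to 8, 6 and 4, for Pmel to 19, 14 and 13, and for Mlana to 3, 0 and 2. Per unit of depth the aged sham to young sham ratio was 0.109 for Tyrp1, given as a description, 0.747 for Dct (95% exact binomial interval 0.214 to 2.46) and 0.734 for Pmel (0.341 to 1.54). The intervals of Dct and Pmel both held no change. For Mlana the interval, 0 to 2.41, held no change and also a fall to 0. Whether these genes differ from Tyrp1 was not tested, since Tyrp1 was chosen for its fall in these libraries. These intervals cover counting error only, and a larger true number of reads per step would narrow them.

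Mitf and Kit were high enough to be tested, and neither was called in any of the 3 comparisons. Of the 6 lineage members, 2 passed the filter of a mean of 0.2 FPKM, and limma called 0 of 2 between aged and young sham, against 4.02% of all genes tested, with Kit under an unadjusted p of 0.05. Between aged injury and aged sham it also called 0 of 2, again with Kit under an unadjusted p of 0.05, and between aged injury and young sham 0 of 2, with 0 of 2 under that value and 13.1% of all genes called. With no filter on low values 5 of the 6 could be fitted, all but Tyr, and 0 of 5 were called in each comparison, with 2 (Kit and Mlana), 1 (Kit) and 0 under an unadjusted p of 0.05, against 0.946%, 2.23% and 6.89% of all 25276 genes fitted.

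Mitf, the transcription factor at the head of the lineage, did not separate the groups. It read 0.72, 0.79 and 1.01 FPKM in the young libraries, 0.837, 1.11 and 0.825 in the aged sham ones, and 0.548, 1.07 and 0.929 after injury. The ranges of all 3 groups overlapped. The log2 change from young to aged sham was 0.13 (95% interval -0.44 to 0.69, limma adjusted p = 0.788) and that from aged sham to aged injury -0.14 (limma adjusted p = 0.804). A difference between Mitf and Tyrp1 was not tested, since Tyrp1 was chosen for its fall.

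Kit was the most abundant member, and its mean was not lower in aged ganglia. It read 12.6, 11.1 and 10.2 FPKM in the young libraries, 12.4, 14.97 and 15.6 in the aged sham ones, and 10.99, 11.8 and 11.5 after injury. The aged sham and young sham ranges touched only through aged sham replicate 1, and all injured libraries were below all aged sham libraries, as was the case for 13.7% of all genes tested. The log2 change was 0.34 between aged and young sham (SE 0.102, limma adjusted p = 0.0824) and -0.32 between aged injury and aged sham (SE 0.102, limma adjusted p = 0.122). Without aged sham replicate 1, the aged library with a Y-linked level of 69.7% of the young mean, the changes were 0.44 and -0.42, with limma adjusted p of 0.0483 and 0.0495. With the Y-linked level as a covariate the age change was 0.01 (limma adjusted p = 0.984) and the injury change -0.42 (0.0482). That covariate differs from age mainly through the same library, so age and sex cannot be told apart here.

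Of the markers of mast cells, which carry Kit, 1 of 7 tested rose with age, against 2.53% of all genes tested. The summed level of 10 mast cell genes ran from 11.99 to 16.5 FPKM in the young libraries, from 21.2 to 27.2 in the aged sham ones and from 16.6 to 24.8 after injury. This was Tpsb2, a mast cell tryptase, which went from 2.56 ± 0.55 to 5.50 ± 1.05 FPKM (limma adjusted p = 0.0415, and 0.0617 with no filter on low values). The other 6 were not called, with 4 of the 7 under an unadjusted p of 0.05. Between aged injury and aged sham none of the 7 was called, and none had an unadjusted p under 0.05. The part of mast cells in the level of Kit was not tested.

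**Figure D3:**
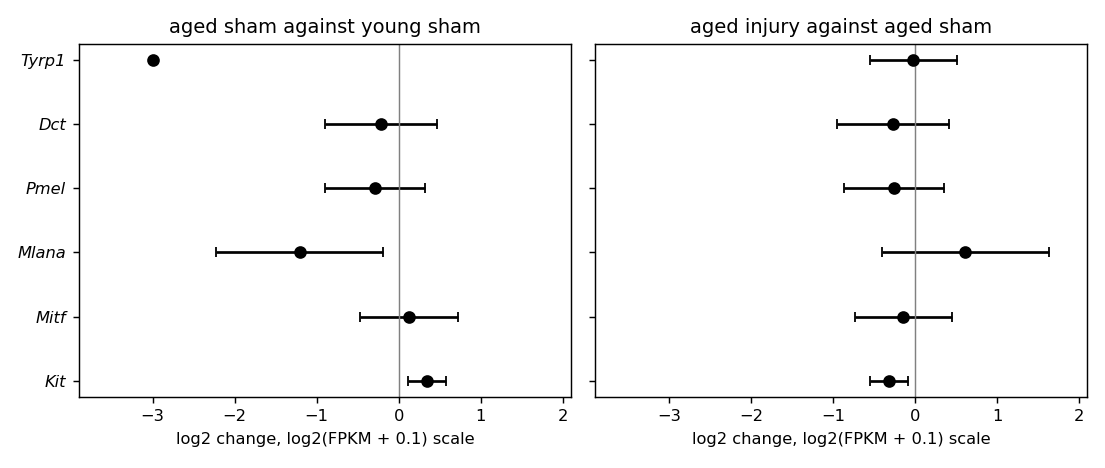
Log2 change on the log2(FPKM + 0.1) scale (horizontal axes) of the 6 lineage genes that were above 0, from limma with no filter on low values. Points are estimates and bars 95% intervals, and Tyrp1 has no bar in aged against young sham because it was chosen for that difference. Tyrp1 stands at -2.998 with age and -0.02 with injury, and with age Mlana stands at -1.21 and the other 4 between -0.29 and 0.34.

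By listed FPKM, Tyrp1 stood between Kit and Mitf in young ganglia and below Mitf in aged sham ganglia. FPKM are scaled by gene length, but differences in how reads were counted between genes, as for Gapdh, limit this order, which is that of the listed values. In young sham the order of the mean levels was Kit at 11.3 ± 1.21, Tyrp1 at 6.31 ± 1.48, Mitf at 0.8395 ± 0.151, Pmel at 0.241 ± 0.0279, Mlana at 0.132 ± 0.0112, Dct at 0.0969 ± 0.0241 FPKM and Tyr at 0. In aged sham Kit averaged 14.3 ± 1.68, Mitf 0.924 ± 0.162 and Tyrp1 0.692 ± 0.102 FPKM, and every Mitf value exceeded every Tyrp1 value. In aged injury Mitf and Tyrp1 overlapped, at 0.848 ± 0.269 and 0.687 ± 0.171 FPKM. The neighbours Mlana and Dct in young sham stood 1 to 3 recovered reads per library above 0.

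Further genes of melanin chemistry and of the melanosome membrane were mostly low, and the 1 that changed with age went the other way from Tyrp1. Of 11 genes, 7 passed the filter. Between aged and young sham 1 rose, 0 fell and 6 were not called, with a median log2 change of 0.126 against 0.0453 for all genes tested, 2.53% of which rose and 1.49% fell. This was Gpnmb, a melanosome glycoprotein that macrophages also make. Gpnmb read 1.32, 1.86 and 1.39 FPKM in the young libraries and 3.74, 12.5 and 9.59 in the aged sham ones (log2 change 2.27, limma adjusted p = 0.0253). Its call was kept in 5 of the 9 fits with 1 library left out, and was lost without young sham replicate 1 or 3 or aged sham replicate 2 or 3 (limma adjusted p = 0.0938, 0.0927, 0.0637 and 0.0874), in a fit of the sham groups alone (0.0621) and with the Y-linked level as a covariate (log2 change 0.57, 0.449). After injury limma called 0 of the 7, with 0 under an unadjusted p of 0.05, and against young sham Gpnmb alone was called in the injured ganglia, higher by 1.57 on the log2 scale. That call was kept in 4 of 9 fits with 1 library left out. It was lost without young sham replicate 1 or 3 or any 1 of the injured libraries (limma adjusted p from 0.0589 to 0.084). With the Y-linked covariate the change was -0.64. That covariate nearly follows age, apart from aged sham replicate 1, so neither fit with it tells age from sex. Of the 11 genes, Oca2, Slc45a2, Gpr143 and Trpm1 did not pass the filter, and their highest value in any library was 0.124 FPKM. Slc24a5, a melanosome ion exchanger, ran from 0.308 to 0.656 FPKM among young libraries and from 0.308 to 0.7999 among aged sham ones.

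Genes that build and move melanosomes, most of which serve lysosome-related organelles in many cells, were not called with age. Of 26 listed genes 25 were found and all 25 were tested. None was called between aged and young sham by limma, with 8 under an unadjusted p of 0.05 and a median log2 change of 0.149 against 0.0453 for all genes. The smallest p belonged to Mlph, melanophilin, which links melanosomes to their myosin, with a log2 change of 1.17 (limma adjusted p = 0.0699). Between aged injury and aged sham 1 rose, against 2.45% of all genes tested, and 0 fell, against 1.65%. The 1 was Lyst, a regulator of lysosome size, which rose from 6.002 ± 0.224 to 8.995 ± 0.208 FPKM (log2 change 0.58, limma adjusted p = 0.00811), a call kept in 9 of 9 fits with 1 library left out. Between aged injury and young sham, Lyst, Dtnbp1 and Mlph rose and Rab38 and Bloc1s6 fell, with 8.2% of all genes higher and 4.89% lower. Of the 9 fits with 1 library left out, 9 kept the call of Lyst, 6 that of Dtnbp1, 4 each those of Mlph and Rab38 and 3 that of Bloc1s6. With the Y-linked level as a covariate none of the 5 was called (limma adjusted p = 0.283, 0.117, 0.551, 0.76 and 0.563). Between these groups that covariate nearly follows the comparison itself, so the lost calls do not tell age from sex.

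Among 21 genes of melanocyte signalling and transcription, Ednrb alone was called with age. Of the 17 that passed the filter, 0 rose, 1 fell and 16 were not called, 7 were under an unadjusted p of 0.05, and the median log2 change was 0.0824. Ednrb, the endothelin receptor that melanoblasts need and that glia also carry, read 37.5, 30.2 and 40.6 FPKM in the young libraries, 18.97, 17.4 and 19.1 in the aged sham ones, and 16.5, 18.1 and 16.1 after injury. No aged library reached the young range. Such a separation, in this direction, was seen for 11.5% of all genes tested in aged sham and 15.5% in aged injury. The log2 change with age was -0.95 (limma adjusted p = 0.00762). This call was kept in 9 of 9 fits with 1 library left out but not with the Y-linked level as a covariate (log2 change -0.82, limma adjusted p = 0.306). Since that covariate nearly follows age, apart from aged sham replicate 1, the lost call does not tell age from sex. Sox10, which marks glia and melanoblasts, averaged 27.7 ± 1.55 FPKM in the young and 32.6 ± 2.59 in the aged sham libraries (limma adjusted p = 0.102). Kitl, the ligand of Kit, averaged 18.02 ± 2.55 and 13.8 ± 1.45 FPKM (limma adjusted p = 0.0739). Pax3 and Mc1r, regulators that melanoblasts and melanocytes use, reached at most 0.0502 and 0.0845 FPKM. After injury none of the 17 was called, with 3 under an unadjusted p of 0.05. Against young sham, the injured ganglia were again lower in Ednrb alone (log2 change -1.08, limma adjusted p = 0.000707, and -0.92 with adjusted p = 0.223 with that covariate).

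**Figure D4:**
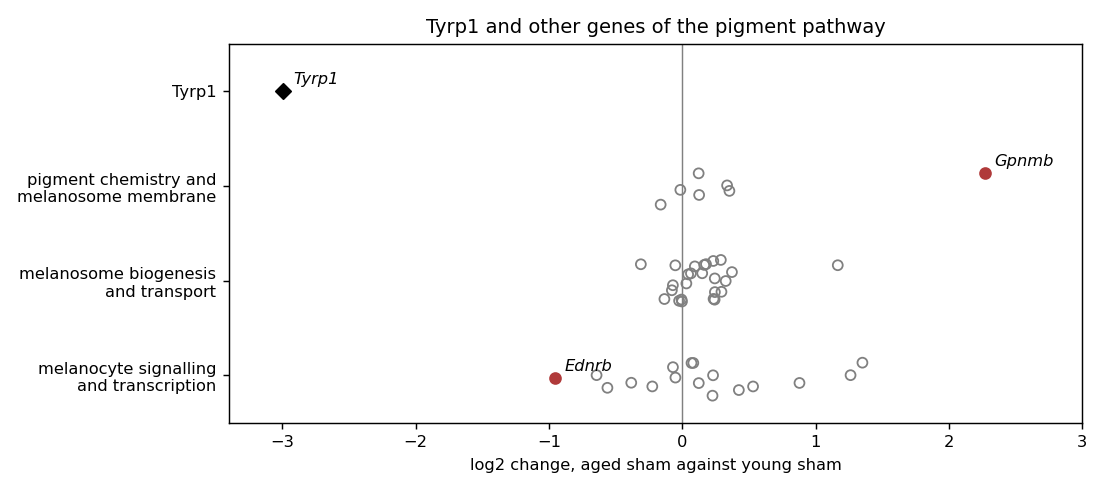
Log2 change between aged and young sham (horizontal axis) of Tyrp1 (diamond, chosen for this difference) and of 49 tested genes in 3 lists (rows, points spread vertically for legibility). Filled points passed an adjusted p of 0.05 and open points did not. Gpnmb at 2.27 and Ednrb at -0.95 are the called genes, and Ednrb has the lowest value of the 49, against -2.998 for Tyrp1.

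Marker genes of other pigmented or skin cells were not called with age. Of 6 genes of the retinal pigment epithelium, which also makes Tyrp1, 4 were tested and 0 were called with age, with 2 under an unadjusted p of 0.05. Their summed level ran from 4.995 to 5.78 FPKM among young and from 5.50 to 6.20 among aged sham libraries. Among them Rgr was at 0 in all sham libraries and Rpe65 reached at most 0.348 FPKM. The 4 tested were higher: Rlbp1 reached 3.91, Best1 1.62, Lrat 1.38 and Ttr 0.892 FPKM. In aged sham the mean of Rlbp1 was lower than in young sham, and those of Best1, Lrat and Ttr were higher. Of 6 keratinocyte genes, Krt5 was at 0 in every library, and Krt14, Trp63 and Dsg3 reached at most 0.549, 0.1565 and 0.078 FPKM. The 2 tested, Krt1 and Krt10, ran from 0.44 to 1.02 and from 1.24 to 1.92 FPKM over the libraries. Of these 2, 0 were called, with 0 under an unadjusted p of 0.05. For 12 genes of leptomeninges and fibroblasts, the coverings in which pigment cells can lie, the summed level ran from 368 to 504 FPKM among young and from 389.9 to 447.5 among aged sham libraries, with 0 of 12 called and 2 under an unadjusted p of 0.05. Among satellite glia and neuronal lists, with age, of 6 satellite glia genes 1 rose and 1 fell, and of 11 neuronal genes 2 fell, against 2.53% of all genes tested higher and 1.49% lower. Their part in the level of Tyrp1 was not tested.

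Neither of the tested neighbours of Tyrp1 on its chromosome was called with age. Tyrp1 lies on chromosome 4 from 80834123 to 80851719 on the plus strand (mm10, GENCODE M21). Within 1000000 bases on either side the table held 11 other genes, of which 2 passed the filter. Lurap1l, which begins 58927 bases beyond the end of Tyrp1, averaged 5.12 ± 0.289 FPKM in the young and 4.46 ± 0.748 in the aged sham libraries (limma adjusted p = 0.298). Mpdz, a scaffold protein of cell junctions, averaged 8.495 ± 0.3 and 7.98 ± 0.365 FPKM (limma adjusted p = 0.393). In aged injury Lurap1l was lower, at 3.33 ± 0.246 FPKM, and Mpdz was at 8.53 ± 0.255 FPKM, given as levels with no test. The other 9 averaged at most 0.0131 FPKM over the libraries.

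Among genes averaging 1 FPKM or more, of which Kit is the only other lineage member, the profiles most like that of Tyrp1 included that of Ednrb. Across 9 libraries, Pearson's r of log2(FPKM + 0.1) with Tyrp1 was computed for 12092 annotated genes, as a description of 3 high and 6 low libraries. The highest values were those of Prss35 (0.987), Dzip3 and Jag1 (0.985 each), Oxct1 (0.984), Klhl13 and Ednrb (0.982 each), Rian (0.980), Tmem184c (0.979), Elovl4 (0.978) and Prkar1a (0.977). Kit had an r of -0.445 and Mitf, below the level set for the ranking, of -0.067. Prss35, a serine protease-like protein, averaged 21.5 ± 3.39 FPKM in the young libraries, 10.8 ± 0.639 in the aged sham ones and 9.89 ± 0.46 after injury. Jag1, a ligand of Notch receptors, averaged 3.82 ± 0.309, 2.25 ± 0.0952 and 2.28 ± 0.2 FPKM. All 10 shared the shape, for which they were picked, but not the size. Their log2 differences between aged and young sham ran from -0.98 to -0.19, against -2.998 for Tyrp1. With 1 library left out, 5 to 9 of the 10 stayed among the first 10, the fewest without aged sham replicate 1.

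**Figure D5:**
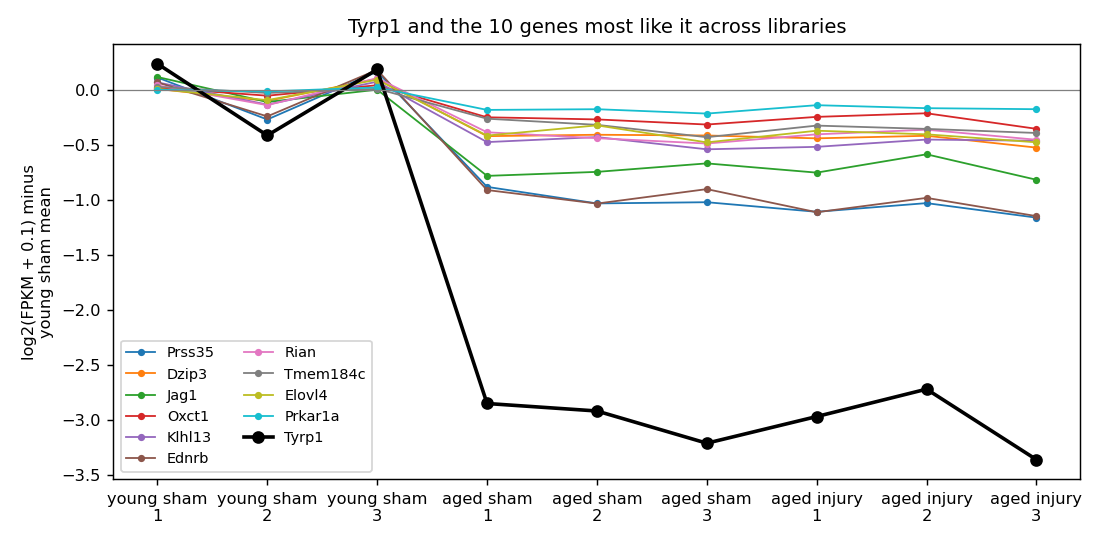
Log2(FPKM + 0.1) minus the young sham mean (vertical axis) in the 9 libraries (horizontal axis) for Tyrp1 (thick line) and the 10 genes with the highest Pearson's r. All 10 are lower in the aged libraries, with log2 differences of aged sham from -0.98 to -0.19 against -2.998 for Tyrp1, and lines join libraries only to guide the eye.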

How the data were processed

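The authors deposited 1 table of FPKM for 45904 identifiers (38392 Ensembl, 7488 UCSC, 24 RefSeq), and UCSC identifiers could not be matched to symbols. Per the labels' protocols, RNA with an integrity number above 7.5 was made into TruSeq mRNA libraries. Build mm10 is named in the submitters' processing notes, with HTSeq 0.6.0, TopHat2 2.0.12, edgeR 3.8.6, Bowtie2 2.2.3, limma 3.22.7 and SAMtools 0.1.19 in no stated role. The gene annotation is not given in the sources used here, nor is the use of strand or any scaling. Symbols and positions came from GENCODE M21.

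The 17601 genes whose mean over the 9 libraries reached 0.2 FPKM were compared in limma 3.58.1 (R 4.3.3), with a variance trend, on log2(FPKM + 0.1), which understates changes of low genes. All 9 libraries entered 1 fit, tests were two-sided, and p-values were Benjamini-Hochberg adjusted over all genes tested and called under 0.05. They measure the spread between pools of 2 mice. Alternatives were other pseudocounts, filters and scalings, a replicate block, a Y-linked covariate, fits of 2 groups and leaving out each library. The Y-linked level nearly followed age, apart from aged sham replicate 1, so calls lost with it do not tell age from sex. The fit was tested on simulated data. Members and lists were chosen with earlier results of these data known. All members were named. From 3 pathway lists the rule took called genes and up to 4 with the smallest p, of which the text names a part. Oca2, Slc45a2, Gpr143, Trpm1, Slc24a5, Pax3, Mc1r and single marker genes fall outside it and were named after their values were seen. Genes like Tyrp1 were the 10 with the highest r. Vamp7 was not matched. The call of 1 glial marker list is not reported here.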

Additional observations from a re-analysis of the deposited data

How the results depend on the processing

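Over 46 results for single genes and 815 values under the alternatives, 740 were kept, most of them as genes not called. Kept means the same direction and side of the threshold. For Tyrp1 against young sham, which has no test, it means the same direction and a shift below the residual SD. Of the other values, 43 lost a call, 10 gained one, 18 changed direction and 4, all of Tyrp1, shifted further. The Tyrp1 difference between aged and young sham stayed between -3.21 and -2.09 on the log2 scale under all 18 alternatives, with -2.09 at a pseudocount of 1. Of the 6 lineage members, 0 were called in every comparison except that Kit was called (1 member) with age and after injury without aged sham replicate 1, and after injury with the Y-linked level as a covariate, so the fits with 1 library left out gave 0 to 1 in both, and 0 in aged injury against young sham. With no filter limma called 239 genes in all with age, against 707. Few reads limited Dct, Pmel, Mlana and Tyr. The replicate block changed no call of a lineage member (Kit adjusted p = 0.142 with age and 0.217 after injury). Same-numbered aged libraries had r of 0.245, 0.27 and 0.0625 over deviations from their group means. Differently numbered aged sham and aged injury libraries had lower r, from -0.26 to 0.0409. Same-numbered libraries of young sham and an aged group were all below 0. The labels do not say that the numbers pair samples, so the main fit did not pair them. Whether aged sham and aged injury libraries of 1 number share a source was not tested.

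Changes of direction were all in values not called, except for Gpnmb in aged injury against young sham, which was -0.64 with the Y-linked covariate against 1.57. With that covariate Mitf was at -0.025 and Sox10 at -0.00065 with age, Tyrp1 at 0.076 after injury, and Kit at -0.41 and Mfsd12 at -0.11 in aged injury against young sham. Mitf with age was at -0.013 after quantile normalization, and Kit in aged injury against young sham at -0.056 with equal medians. With 1 library left out Mitf ran from -0.0012 to 0.25 with age. After injury Tyrp1 ran from -0.17 to 0.15, Mitf from -0.32 to 0.11 and Cd63 from -0.0536 to 0.28. In aged injury against young sham Mitf ran from -0.19 to 0.23 and Kit from -0.05001 to 0.10. The causes were not tested.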
